A study of Mus musculus with 6 samples.

Results

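The genes described here are 10 transcriptional targets of YAP, taken by symbol from the gene expression table: *Ccn1*, *Ccn2*, *Ankrd1*, *Amotl1*, *Amotl2*, *Ajuba*, *Axl*, *Nuak2*, *Ptpn14* and *Arhgef17*. All 10 were among the 17784 genes listed, and 9 were among the 12999 genes with enough counts to be tested. Bulk RNA-seq gave their levels in the corneal epithelium of 3 *Prrx1-CreERT;Ptch1 f/f* samples, written Ptch1Prrx1, and of 3 control samples. The labels call the controls ctrl, the sample titles call them WT and a figure of the study writes *Ptch1 f/f*. *Ptch1* encodes the receptor that restrains Hedgehog signaling. *Prrx1-CreERT* is a recombinase that works only after tamoxifen and that the study uses for keratocytes, the cells of the stroma, while naming corneal endothelial cells as a further site of recombination. The deletion was therefore directed at cells beneath the epithelium, not at the epithelium that was sequenced. Per the labels, the mice of both groups were 10 weeks old and received 3 doses of tamoxifen, with 2 months given as the length of treatment, and the epithelium was lifted off with EDTA. The labels do not say whether each sample came from its own animal, so the p-values measure the spread between these samples.

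YAP and its relative TAZ are coactivators that enter the nucleus, bind TEAD factors on DNA and switch on target genes. The Hippo kinases, ending with LATS1 and LATS2, phosphorylate YAP and keep it in the cytoplasm, and stretched or spread cells on a stiff support tend to hold more YAP in the nucleus. The 10 genes are common readouts of this activity, and several of them encode proteins that act back on YAP or on the LATS kinases. The study sequenced the epithelium to learn how a deletion in the cells beneath it alters epithelial differentiation, and took up YAP from there. Transcript levels of targets do not measure protein amount, phosphorylation or location of YAP.

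The sequences just upstream of the target genes are shown because TEAD factors read the letters GGAATG on either strand (CATTCC on the other). Upstream sequences of 250 bases from RefSeq (build GRCm38.p6) matched 7 of the 10 genes, namely *Ccn1*, *Ankrd1*, *Amotl1*, *Amotl2*, *Ajuba*, *Axl* and *Ptpn14*. The motif stood in 6 of the 7, all but that of *Amotl1*, and in 12.6% of the 32851 promoters of the same table and length. Printed here are those of *Ccn1*, the target that was called, of *Ankrd1*, which was almost silent, and of the paralogs *Amotl2* and *Amotl1*. They lie at chr3:145649986-145650235 (minus strand), chr19:36119845-36120094 (minus strand), chr9:102717554-102717803 (plus strand) and chr9:14615001-14615250 (minus strand). Each reads 5′ to 3′ toward the start of the gene, with the motif in capitals.
Ccn1: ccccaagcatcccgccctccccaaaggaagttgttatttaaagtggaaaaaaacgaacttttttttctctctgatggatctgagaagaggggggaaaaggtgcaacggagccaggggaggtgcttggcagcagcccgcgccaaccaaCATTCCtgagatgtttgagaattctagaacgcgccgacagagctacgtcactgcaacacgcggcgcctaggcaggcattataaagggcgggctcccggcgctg
Ankrd1: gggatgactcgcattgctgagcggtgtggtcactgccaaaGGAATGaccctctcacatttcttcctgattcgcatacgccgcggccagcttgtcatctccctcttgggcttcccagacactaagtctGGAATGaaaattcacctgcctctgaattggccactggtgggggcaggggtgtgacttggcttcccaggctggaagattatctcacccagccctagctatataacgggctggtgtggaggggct
Amotl2: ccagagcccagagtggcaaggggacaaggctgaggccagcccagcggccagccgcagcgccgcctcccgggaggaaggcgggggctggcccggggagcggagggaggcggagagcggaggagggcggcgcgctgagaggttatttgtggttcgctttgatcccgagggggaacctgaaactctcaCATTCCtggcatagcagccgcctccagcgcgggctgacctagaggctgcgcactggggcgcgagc
Amotl1: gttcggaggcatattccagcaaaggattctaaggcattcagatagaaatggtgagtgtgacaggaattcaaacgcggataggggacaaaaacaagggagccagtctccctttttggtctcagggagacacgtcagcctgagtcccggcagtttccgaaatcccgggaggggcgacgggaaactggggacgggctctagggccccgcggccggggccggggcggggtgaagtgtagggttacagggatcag
The motif began 103 bases upstream of the start in *Ccn1*, 210 and 123 bases upstream in *Ankrd1*, and 65 bases upstream in *Amotl2*. In the promoters that are not printed it began 186 and 164 bases upstream in *Ajuba*, 233 in *Axl* and 146 in *Ptpn14*. The AP-1 motif TGANTCA (6.75% of all promoters), the CRE motif TGACGTCA (1.55%) and the CArG box read by SRF (1.47%), all searched on both strands, had 0 matches in the 7 sequences. A match is a run of letters and was not tested as a binding site, and these windows say nothing about sites farther away.

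The expected counts summed to 20296741 to 20625813 per sample, so that 3 counts, used as the floor of detection, correspond to 0.145 to 0.148 CPM (counts scaled to a common library size). This floor covers counting error only. The samples held the defining markers of corneal epithelium, with 12 of 12 listed markers detected in all 6 samples and *Krt12*, the keratin of differentiated corneal epithelium, as the most abundant. Of the keratocyte and stroma markers, *Kera* had no more than 1 count in any sample, but others were detected, such as *Pdgfra* in all 6 samples and *Col1a2*, a chain of type I collagen, which was highest in control replicate 3. Ptch1Prrx1 replicate 1 stood apart from the other libraries on the first principal component (51.7, against 18.3 and 19.1 in replicates 2 and 3 and -33.7 to -26.5 in the controls). *Ptch1* itself had 517, 659 and 682 normalized counts in the control samples and 390, 445 and 471 in the Ptch1Prrx1 samples. This difference in the epithelium does not check the labels, since the recombinase was aimed at other cells.

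Of the 10 YAP targets, 1 rose, 0 fell, 8 did not pass the test and 1 was too low to be tested. *Ccn1*, which encodes a secreted matrix-associated protein, rose 2.95-fold. Its family member *Ccn2* was scarce in this epithelium and varied as much within the groups as between them. The targets that feed back on the pathway, *Amotl1*, *Amotl2*, *Ajuba* and *Ptpn14*, had mean levels that differed from the controls by at most 10.5%, and *Nuak2* had a mean level of 83.7% of the controls that missed the threshold. A gene was called where its fold change reached 2 and its p, adjusted over all tested genes by the method of Benjamini and Hochberg, did not exceed 0.05. By this rule 3.23% of the tested genes were called in either direction, 2.34% as higher and 0.892% as lower, and 1 of the 9 tested targets was called.

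**Figure D1:**
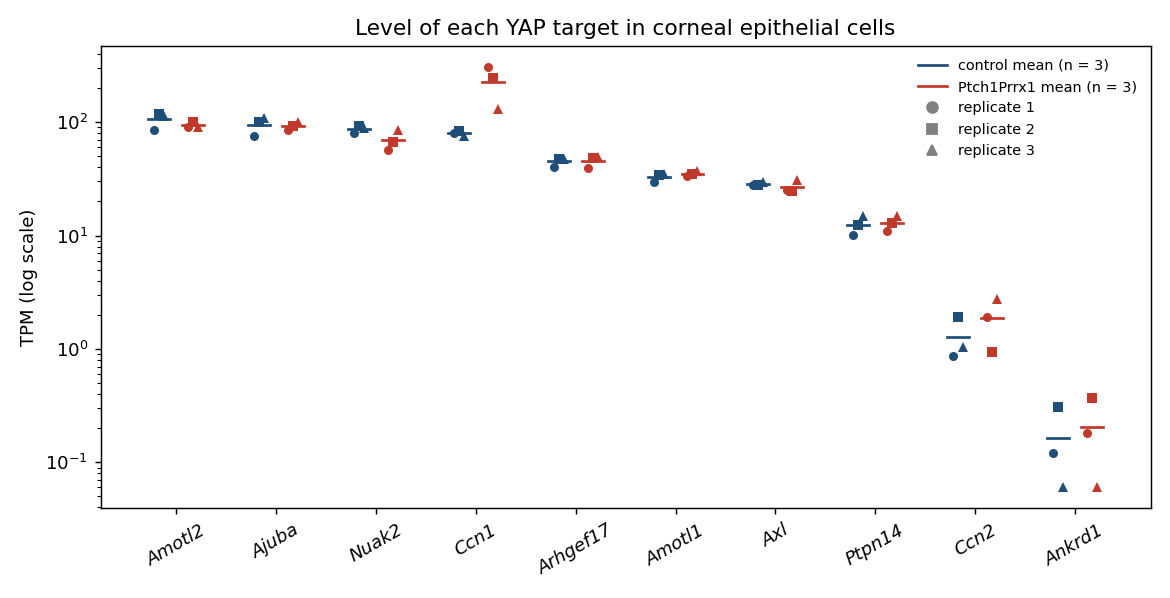
TPM (a transcript level scaled for gene length and depth, log axis) of each of the 10 YAP targets in the 3 control (blue) and 3 Ptch1Prrx1 (red) samples. Each point is a sample, its shape gives the replicate number and the line is the group mean. *Ccn1* alone shows separated groups far apart, at 75.7 to 83.6 TPM in the controls and 129 to 307 TPM in Ptch1Prrx1, while *Ankrd1* stays at or below 0.37 TPM in every sample.

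*Ccn1* (gene 16007), formerly *Cyr61*, encodes a secreted protein that binds integrins and the matrix. It had 1556, 1548 and 1380 normalized counts in control replicates 1, 2 and 3, and 6181, 4665 and 2372 in Ptch1Prrx1 replicates 1, 2 and 3. All 3 Ptch1Prrx1 samples lay above all controls, and the lowest of them still stood 1.52-fold above the highest control. The controls were close together (coefficient of variation, the SD as a share of the mean, 6.65%), whereas the Ptch1Prrx1 samples spread over a 2.61-fold range (43.5%), highest in replicate 1 and lowest in replicate 3. The group means were 1495 ± 99.4 and 4406 ± 1917 normalized counts (SD, n = 3). The log2 fold change was 1.56, with a 95% interval from 0.85 to 2.27 (adjusted p = 0.0212 in edgeR's quasi-likelihood test), which is a rise of between 1.81-fold and 4.81-fold. Without Ptch1Prrx1 replicate 1, the sample that stood apart, *Ccn1* was still called, with a log2 fold change of 1.24 (edgeR adjusted p = 0.0271). Without control replicate 1, 2 or 3 or Ptch1Prrx1 replicate 2 the edgeR adjusted p rose to 0.0623, 0.0931, 0.0640 or 0.0501, so that the call was lost. In these fits the log2 fold change stayed about as large, at 1.59, 1.58, 1.503 and 1.51.

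*Ccn2* (gene 14219), formerly *Ctgf*, encodes a related secreted protein that is known for its part in fibrosis. It had 20, 43 and 23 expected counts in the control samples and 44, 21 and 60 in the Ptch1Prrx1 samples. The groups overlapped throughout, with Ptch1Prrx1 replicate 2 at the level of the 2 lowest controls and control replicate 2 at the level of Ptch1Prrx1 replicate 1. The means were 28.2 ± 12.3 and 42.3 ± 19.3 normalized counts (SD, n = 3). The 95% interval of the log2 fold change of 0.58 ran from -0.44 to 1.61, so that neither a small fall nor a 3.06-fold rise lay outside it (edgeR adjusted p = 0.392). A rise of the size seen for *Ccn1* lay just inside that interval. Single libraries moved the log2 fold change, to 0.25 without Ptch1Prrx1 replicate 3, 0.39 without control replicate 1, 0.90 without Ptch1Prrx1 replicate 2 and 1.00 without control replicate 2, and it was not called in any of these. A test of the difference between these family members was made on their log2 ratio (*Ccn1* over *Ccn2*), which was 6.26, 5.18 and 5.92 in the controls and 7.07, 7.73 and 5.30 in the Ptch1Prrx1 samples. The ratios overlapped, with a mean difference of 0.91 (exact two-sided permutation test, p = 0.3, adjusted p = 0.3 over 2 ratios, where 0.1 is the smallest p that 3 against 3 samples allow). Without Ptch1Prrx1 replicate 2 the mean difference was 0.40, and without replicate 3 it was 1.61. With so few samples this test could not have shown a different response of *Ccn1* and *Ccn2* at 0.05.

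*Ankrd1* (gene 107765) encodes an ankyrin-repeat protein of nucleus and sarcomere, best known from heart muscle and a standard YAP readout in cultured cells. It had 2, 5 and 1 expected counts in the control samples and 3, 6 and 1 in the Ptch1Prrx1 samples, or 0.06 to 0.37 TPM. These values lie around the floor of 3 counts in both groups. A difference in *Ankrd1* was not detectable at this depth, and no fold change is given.

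Of the targets, 4 encode proteins that hold YAP or the LATS kinases in check or in place. *Amotl1* (gene 75723) encodes an angiomotin-like scaffold that binds YAP at cell junctions. It had 2591, 2818 and 2833 normalized counts in the control samples and 3026, 3014 and 3069 in the Ptch1Prrx1 samples. On this scale the groups did not overlap, although the gap was small. In TPM they overlapped (29.9, 33.9 and 34.6 against 33.5, 35.0 and 37.2). The Ptch1Prrx1 samples were close together (coefficient of variation 0.958%). The mean was 10.5% higher, a log2 fold change of 0.14 (standard error 0.06) with an edgeR adjusted p of 0.145. Groups that did not overlap, with Ptch1Prrx1 higher, occurred in 19.7% of all tested genes, and *Ccn1* and *Amotl1* were the 2 among the 9 tested targets. Groups that did not overlap with Ptch1Prrx1 lower occurred in 20.3% of all tested genes and in 0 of the 9.

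*Amotl2* (gene 56332), the paralog of *Amotl1* and also a YAP-binding scaffold, had 3449, 4569 and 4358 normalized counts in the control samples and 3859, 4040 and 3510 in the Ptch1Prrx1 samples. The Ptch1Prrx1 values all lay inside the range of the controls, in which replicate 1 was low. The log2 fold change was -0.12 (standard error 0.11, edgeR adjusted p = 0.508), and it ran from -0.23 without control replicate 1 to -0.04 without control replicate 2. The log2 ratio of *Amotl1* to *Amotl2* was -0.41, -0.70 and -0.62 in the controls and -0.35, -0.42 and -0.19 in the Ptch1Prrx1 samples, and the groups overlapped narrowly. The mean difference was 0.25, and the exact two-sided permutation test gave p = 0.2 (adjusted p = 0.3 over 2 ratios). With 0.1 as the smallest p possible, this test could not have shown a difference between the paralogs at 0.05.

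*Ajuba* (gene 16475) encodes a LIM-domain protein of adherens junctions that binds and restrains the LATS kinases. It had 2520, 3215 and 3492 normalized counts in the control samples and 2981, 3087 and 3208 in the Ptch1Prrx1 samples. The means were all but equal, with all Ptch1Prrx1 samples inside the range of the controls (log2 fold change 0.01, standard error 0.12, edgeR adjusted p = 0.973). Its sign changed with the scaling, since upper-quartile factors gave -0.00388. *Ptpn14* (gene 19250) encodes a phosphatase that binds YAP and favours its stay in the cytoplasm. It had 1036, 1212 and 1413 normalized counts in the control samples and 1177, 1303 and 1432 in the Ptch1Prrx1 samples. The groups overlapped, with control replicate 1 below every Ptch1Prrx1 sample (log2 fold change 0.10, standard error 0.12, edgeR adjusted p = 0.630).

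*Nuak2* (gene 74137) encodes a kinase of the AMPK-related family that has been described as a support of YAP activity. It had 2322, 2549 and 2357 normalized counts in the control samples and 1744, 1967 and 2336 in the Ptch1Prrx1 samples. Ptch1Prrx1 replicates 1 and 2 lay below every control, while replicate 3 lay among them. The log2 fold change was -0.26 with a 95% interval from -0.51 to -0.01, the lowest of the 9 targets, and it did not pass the threshold (edgeR adjusted p = 0.142). Without Ptch1Prrx1 replicate 1 it was -0.16. Among the Ptch1Prrx1 samples the order of *Nuak2* was the reverse of that of *Ccn1*, a pairing picked after the values were seen and resting on 3 samples. Replicate 1 was lowest for *Nuak2* and highest for *Ccn1*, and replicate 3 the other way round.

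**Figure D2:**
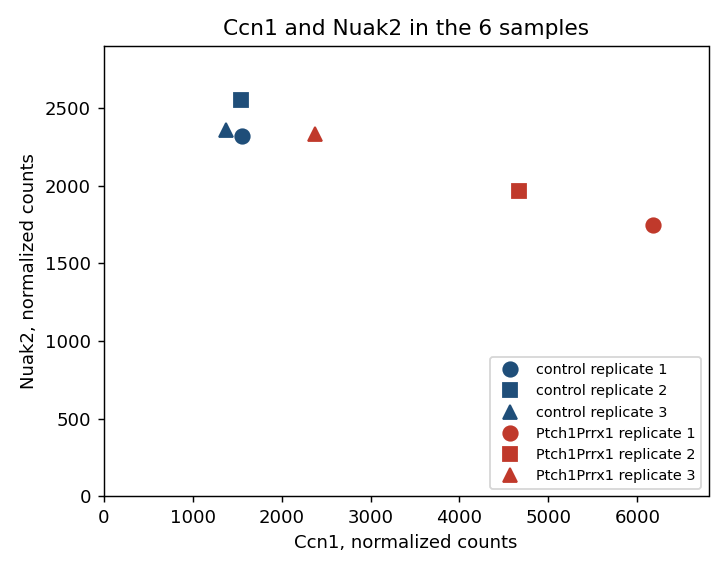
Normalized counts of *Ccn1* (horizontal axis) and *Nuak2* (vertical axis, from 0) in the 3 control (blue) and 3 Ptch1Prrx1 (red) samples, with 1 point per sample. The controls cluster at 1380 to 1556 for *Ccn1* and 2322 to 2549 for *Nuak2*, and the Ptch1Prrx1 samples run from replicate 3 (2372 and 2336) down to replicate 1 (6181 and 1744).

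*Axl* (gene 26362) encodes a receptor tyrosine kinase whose ligand is the secreted protein GAS6. It had 1107, 1079 and 1113 normalized counts in the control samples and 1043, 979 and 1181 in the Ptch1Prrx1 samples. The Ptch1Prrx1 samples surrounded the tightly grouped controls on both sides (log2 fold change -0.04, standard error 0.08, edgeR adjusted p = 0.756). *Arhgef17* (gene 207212) encodes an exchange factor that activates RHOA, a regulator of the actin cytoskeleton. It had 4024, 4504 and 4476 normalized counts in the control samples and 4062, 4753 and 4655 in the Ptch1Prrx1 samples. In both groups replicate 1 was the lowest, and the groups overlapped (log2 fold change 0.05, standard error 0.08, edgeR adjusted p = 0.711).

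**Figure D3:**
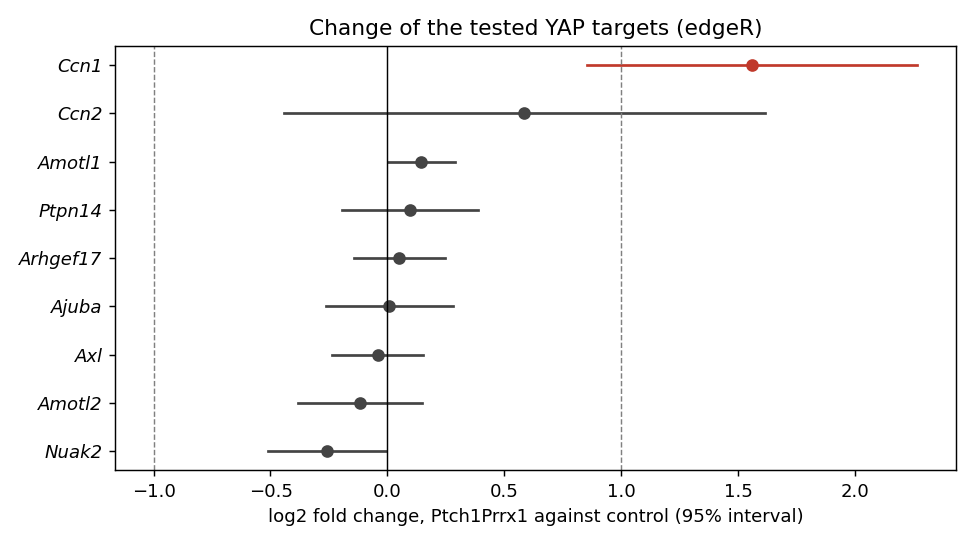
Log2 fold change of Ptch1Prrx1 against control for the 9 tested YAP targets, as points with the 95% interval from edgeR as bars, and dashed lines at a 2-fold change. *Ccn1* (red) is the called gene, the interval of *Ccn2* crosses both 0 and the upper dashed line, and the other 7 intervals lie between the dashed lines.

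For 7 of the 9 tested targets the 95% interval lay wholly inside a 2-fold change, with fold bounds from 0.703 to 1.31, so that a change of 2-fold or more lay outside the interval of each of them. The exceptions were *Ccn1* and *Ccn2*. The median log2 fold change of the 9 was 0.05, and it was 0.03 over the 8 without *Ccn1*, beside -0.01 over all tested genes. Of the 9, 6 had a log2 fold change above 0, where 48.5% of all tested genes did. With no minimum fold change 14.0% of all tested genes passed the adjusted p, and of the 9 it was again *Ccn1* that did. DESeq2 called the same gene and 0 of the other 8. At an unadjusted p under 0.05 in edgeR, 33.5% of all tested genes and 3 of the 9 targets (*Ccn1*, *Nuak2* and *Amotl1*) were counted, a share near that background.

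The replicates spread differently from gene to gene. The coefficient of variation within groups, averaged over both, was 9.17% for the median tested gene. It was below this for *Amotl1* (2.95%), *Axl* (5.67%) and *Arhgef17* (7.27%), and close to it for *Nuak2* (9.95%), *Ajuba* (9.97%), *Amotl2* (10.8%) and *Ptpn14* (12.6%). *Ccn1* (25.1%) and *Ccn2* (44.6%) varied most. *Ccn2* varied in both groups (43.6% and 45.7%), whereas *Ccn1* varied mostly in the Ptch1Prrx1 samples. Control replicate 1 had the lowest value of its group for 7 of the 9 targets, where 34.7% of all tested genes had theirs there. These were *Ccn2*, *Amotl1*, *Amotl2*, *Ajuba*, *Nuak2*, *Ptpn14* and *Arhgef17*.

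On the TPM scale, which allows levels to be compared between genes, *Amotl2* was the highest target in the controls (106 ± 17.7 TPM, SD, n = 3). It was followed by *Ajuba* (94.7 ± 17.9 TPM), *Nuak2* (87.4 ± 6.69 TPM) and *Ccn1* (80.0 ± 4.02 TPM), and each of these overlapped its neighbour in range. *Arhgef17* (45.1 ± 4.00 TPM), *Amotl1* (32.8 ± 2.53 TPM), *Axl* (28.4 ± 0.875 TPM) and *Ptpn14* (12.4 ± 2.36 TPM) came next without overlap between neighbours. *Ccn2* (1.27 ± 0.566 TPM) and *Ankrd1* (0.163 ± 0.131 TPM) closed the order. Thus *Ccn1* stood at percentile 84.8 of all tested genes by control TPM and *Ccn2* at percentile 10.7. In the Ptch1Prrx1 samples *Ccn1* came first at 227 ± 89.9 TPM, and its lowest sample (129 TPM) lay above the highest of *Amotl2* (101 TPM). The other 9 genes kept the order they had in the controls.

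The genes whose log2 CPM ran most like those of *Ccn1* over the 6 samples were *Vsig10l*, *Uqcc2*, *Tnfrsf1a*, *Mcub* and *Mt2*, by Pearson's coefficient (0.999 to 0.994, among 10322 genes averaging 100 normalized counts or more). As many as 219 genes lay above 0.95, and the coefficient describes the split between the groups as much as the order within them. For *Ccn2* the most alike were *Cbx6*, *Nbea*, *Pop7*, *Heatr5b* and *Abraxas2* (0.993 to 0.941), and 4 genes lay above 0.95. The lists of *Ccn1* and *Ccn2* had 0 genes in common, which for lists this short does not show whether these genes respond alike.

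The targets were set beside other genes of the pathway. Of 14 further genes of YAP target signatures, 12 were tested, 1 was called as higher and 0 as lower, with a median log2 fold change of 0.03. The called gene was *Nt5e* (gene 23959), which encodes CD73, the surface enzyme that makes adenosine. It had 136, 157 and 267 normalized counts in the controls and 1232, 541 and 1103 in the Ptch1Prrx1 samples, with no overlap (log2 fold change 2.36, standard error 0.36, edgeR adjusted p = 0.0119). With no minimum fold change 2 genes of this list also fell, *Fjx1* (-0.58, edgeR adjusted p = 0.0288), a secreted regulator of the Fat and Dachsous cadherins, and *F3* (-0.57, edgeR adjusted p = 0.0413), which encodes tissue factor. Both were named after their values were seen. Of these 12 genes, 7 had a log2 fold change above 0, and *Foxf2* and *Ccdc80* were too low to be tested.

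Among 22 other genes often cited as YAP targets, 19 were tested, 2 were called as higher and 1 as lower. *Areg* (gene 11839), a ligand of the EGF receptor, had 192, 85.5 and 108 normalized counts in the controls and 708, 351 and 330 in the Ptch1Prrx1 samples (log2 fold change 1.85, edgeR adjusted p = 0.0256). It was higher in every Ptch1Prrx1 sample than in any control. *Edn1* (gene 13614), which encodes endothelin 1, went the opposite way, with 410, 431 and 403 normalized counts in the controls and 165, 212 and 239 in the Ptch1Prrx1 samples (log2 fold change -1.01, edgeR adjusted p = 0.00947). With no minimum fold change 6 of the 19 genes passed the test as higher and 3 as lower, beside 989 and 833 of the 12999 tested genes. The 3 that were lower were *Edn1*, *Ccnd1* (-0.56) and *Birc2* (-0.34), and *Thbs1* (0.98), *Myc* (0.91), *Zyx* (0.57) and *Vcl* (0.41) were higher without reaching a 2-fold change. The last 6 genes named were chosen after their values were seen. The median log2 fold change of the list was 0.26, with 12 of 19 above 0.

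Upstream of the targets, *Yap1* had 5157, 5335 and 5550 normalized counts in the controls and 5203, 4925 and 5236 in the Ptch1Prrx1 samples, and the groups overlapped. Of the 9 tested genes for YAP, TAZ, the TEAD factors and their Vgll cofactors, edgeR called *Tead4* as higher and DESeq2 called 2 as higher. *Tead4* was at 88.4, 59.0 and 47.6 normalized counts in the controls and 164, 144 and 155 in the Ptch1Prrx1 samples. On the TPM scale its level in Ptch1Prrx1 (5.31 ± 0.363 TPM, SD, n = 3) was still far below those of *Tead1* (37.0 ± 2.09 TPM) and *Tead3* (143 ± 8.88 TPM). *Wwtr1*, which encodes TAZ, had 1398, 1152 and 1275 normalized counts in the controls and 2140, 1816 and 1604 in the Ptch1Prrx1 samples, without overlap. Its log2 fold change was 0.54 (edgeR adjusted p = 0.0292), short of a 2-fold change. *Tead2* was scarce, at 0.70 to 1.94 TPM in the controls. In the list headed Hippo kinase core, which also holds adaptors and upstream regulators, 0 of 15 tested genes were called in either direction. With no minimum fold change 3 passed the test as higher and 0 as lower. DESeq2 also called 0 of them, and at an unadjusted p under 0.05 in edgeR 7 were higher and 0 lower, beside 2208 and 2150 of the 12999 tested genes. The 3 that passed were *Taok3* (log2 fold change 0.51, edgeR adjusted p = 0.0139), *Map4k4* (0.50, edgeR adjusted p = 0.0387) and *Taok1* (0.28, edgeR adjusted p = 0.0401), kinases that act on the first Hippo kinases and on LATS. The core kinase genes *Stk3*, *Stk4*, *Lats1* and *Lats2* did not pass (edgeR adjusted p = 0.0934, 0.611, 0.0766 and 0.0595). The list shares *Lats2* and *Wwc1* with the other lists of YAP targets.

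**Figure D4:**
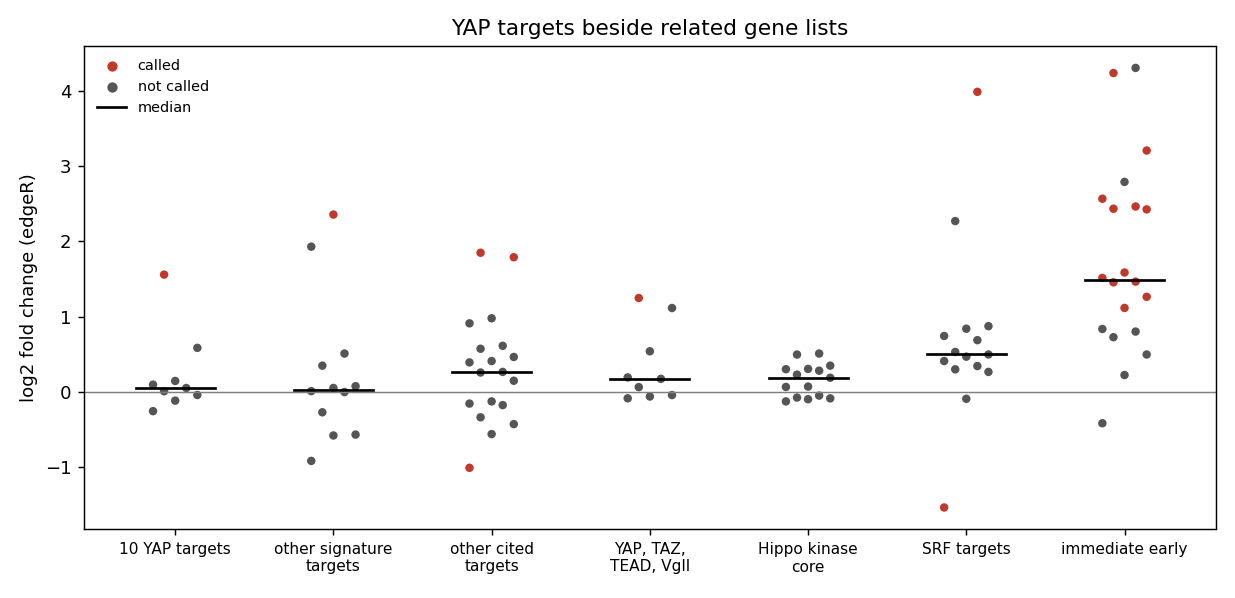
Log2 fold change (edgeR) of each tested gene in the YAP targets and in 6 other lists, with the list's median as a line and called genes in red. The YAP targets lie close to 0 apart from *Ccn1* (1.56) and *Ccn2* (0.58), whereas the immediate early genes have a median of 1.49 with 12 of 20 called. The 12 include *Egr2* and *Egr3*, which could be called only as higher. Over all tested genes 3.23% were called, and the lists were chosen with earlier results of these data known.

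Relatives of the targets in the same gene families were measured too. Of 18 relatives and partners, 14 were tested, 0 were called as higher and 1 as lower. The called gene was *Ccn3* (gene 18133), of the same family as *Ccn1* and *Ccn2*. It had 358, 384 and 465 normalized counts in the controls and 79.6, 185 and 145 in the Ptch1Prrx1 samples. All 3 Ptch1Prrx1 samples lay below every control (log2 fold change -1.56, standard error 0.27, edgeR adjusted p = 0.0165), so *Ccn3* fell where *Ccn1* rose. *Ccn5* and *Ccn6* had at most 17.9 normalized counts in every sample and *Ccn4* was not tested. *Gas6* (gene 14456), the ligand of AXL, had 4052, 4116 and 3781 normalized counts in the controls and 2224, 2665 and 2991 in the Ptch1Prrx1 samples. It fell by 0.60 on the log2 scale (edgeR adjusted p = 0.0179), less than a 2-fold change, while *Axl* itself showed the overlap given above. Of the other receptors of GAS6, *Tyro3* had a log2 fold change of 0.02 (edgeR adjusted p = 0.909) and *Mertk* of -0.74 (edgeR adjusted p = 0.0951). *Arhgef10l* (gene 72754), which encodes an exchange factor like *Arhgef17*, rose by less than a 2-fold change, from 393, 446 and 451 normalized counts in the controls to 953, 683 and 683 in the Ptch1Prrx1 samples (log2 fold change 0.84, edgeR adjusted p = 0.0156). With no minimum fold change, these were the 2 relatives that fell, *Ccn3* and *Gas6*, and the 1 that rose. *Gas6*, *Arhgef10l*, *Tyro3* and *Mertk* were named after their values were seen. *Amot*, the third angiomotin, had at most 11.7 normalized counts and was not tested.

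Immediate early genes and targets of SRF were set beside *Ccn1*. Of 20 immediate early genes, which are transcribed within minutes of many stimuli, 12 were called as higher and 0 as lower. Over all tested genes the shares were 2.34% and 0.892%. The list was chosen with earlier results of these data known. The summed level of these 20 genes was 1963, 2072 and 1729 CPM in the controls and 4600, 4460 and 3664 in the Ptch1Prrx1 samples, with *Junb* as the most abundant. *Jun* had 1741, 1827 and 1767 normalized counts in the controls and 13440, 9411 and 6608 in the Ptch1Prrx1 samples. The log2 fold change was 3.21 for *Nr4a1*, 2.57 for *Fosb*, 2.44 for *Egr2* and 2.43 for *Dusp1*, all called. *Egr3*, also called, had 1.99, 0 and 0 normalized counts in the controls and 22.7, 10.3 and 11.0 in the Ptch1Prrx1 samples. *Egr2* and *Egr3* had enough counts to be tested only through the Ptch1Prrx1 samples and could be called only as higher. Of 15 tested targets of SRF, the actin-responsive factor, *Fhl2* was called as higher and *Fhl1* as lower, both LIM-domain proteins. *Fhl1* had a log2 fold change of -1.54 (edgeR adjusted p = 0.0203). *Fhl2* had 3.97, 0.983 and 6.79 normalized counts in the controls and 99.2, 36.9 and 56.7 in the Ptch1Prrx1 samples. It too had enough counts to be tested only through the Ptch1Prrx1 samples and could be called only as higher. With no minimum fold change 6 of the 15, *Fhl2* among them, were higher and 1 lower, beside 989 and 833 of the 12999 tested genes. The median log2 fold change of the 15 was 0.50. The summed level was 8278, 7952 and 7599 CPM against 10952, 10086 and 8899, most of it *Actg1*. The list shares *Vcl*, *Flna* and *Tagln* with the cited YAP targets and *Srf* with the immediate early genes. The part of either group in the rise of *Ccn1* was not tested.

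Levels of other cell types were set beside the targets, since in bulk RNA fewer cells of a type and less RNA per cell cannot be told apart. The summed level of 12 listed keratocyte and stroma markers was 29.7, 24.9 and 106 CPM in the controls and 24.5, 29.4 and 17.7 in the Ptch1Prrx1 samples. Control replicate 3 was thus the highest, and 0 of the 6 tested markers were called. *Pdgfra* was the most abundant marker over all samples (327 to 428 normalized counts in the controls and 210 to 344 in Ptch1Prrx1). In control replicate 3 most of the sum was *Col1a2*, which had 85.5, 44.2 and 1239 normalized counts in the controls and 105, 131 and 3.98 in the Ptch1Prrx1 samples. *Prrx1* (209 normalized counts) and *Col6a1* (175) were also highest in that library. Without it the log2 fold change of *Ccn1* was 1.503, against 1.56 with all samples, and the call was lost (edgeR adjusted p = 0.0640). Of the 6 tested stroma markers 0 had a log2 fold change above 0. *Dcn* and *Ptgds*, too low to be tested, went the other way. *Dcn* had 4.97, 0.983 and 5.82 normalized counts in the controls and 15.5, 9.24 and 22.9 in the Ptch1Prrx1 samples. *Ptgds* had 0.994, 0.983 and 0.971 against 7.24, 2.05 and 2.99. The summed immune markers were 182, 212 and 246 CPM against 344, 249 and 270, mostly from *Itgam*, while *Ptprc*, *Adgre1*, *Lyz2* and *Cd3e* had at most 8.74 normalized counts in any sample, and 0 of 3 tested genes were called. The other tested immune markers were *Cd68*, with 538, 507 and 553 normalized counts in the controls and 798, 566 and 569 in the Ptch1Prrx1 samples (log2 fold change 0.27, edgeR adjusted p = 0.213), and *Cd74*, with 132, 92.4 and 155 against 152, 48.2 and 77.7 (-0.45, edgeR adjusted p = 0.464). Vascular endothelial markers summed to 5.08 CPM or less in every sample, with *Cdh5* at or near 0. Smooth muscle and pericyte markers summed to 4.23, 4.23 and 5.37 against 12.5, 10.2 and 8.62 CPM, with *Cspg4* the most abundant and called (log2 fold change 1.54, edgeR adjusted p = 0.0112), with *Myh11*, *Des* and *Rgs5* at or near 0. *Acta2*, the other tested marker of that list, had 27.8, 46.2 and 21.4 normalized counts in the controls and 91.0, 52.3 and 31.9 in the Ptch1Prrx1 samples, with overlap (log2 fold change 0.87, edgeR adjusted p = 0.208).

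Of the corneal endothelial markers, *Slc4a11*, an ion transporter, had 662, 751 and 664 normalized counts in the controls and 748, 830 and 797 in the Ptch1Prrx1 samples. The groups overlapped narrowly (log2 fold change 0.19, edgeR adjusted p = 0.147), and *Car3*, *Slc4a4* and *Col8a2* had at most 3.97 normalized counts in any sample. *Col8a1* had 6.96, 4.92 and 6.79 normalized counts in the controls and 26.9, 2.05 and 6.97 in the Ptch1Prrx1 samples, highest in replicate 1, and was too low to be tested. Markers of the conjunctiva and of the corneal epithelium were measured as well. The summed conjunctival markers were 1073, 1348 and 1663 CPM in the controls and 3826, 1650 and 2144 in the Ptch1Prrx1 samples, mostly *Krt13*, and were highest in Ptch1Prrx1 replicate 1, as *Ccn1* was. In edgeR 0 of the 6 tested markers of this list were called. DESeq2 called 1. In edgeR 4 had an unadjusted p under 0.05, 3 as higher and 1 as lower, where 33.5% of all tested genes had such a p. Among these 4 markers, the log2 fold change was 1.80 for *Krt4* (edgeR adjusted p = 0.0685), 1.46 for *Krt19* (edgeR adjusted p = 0.0793), 0.68 for *Krt13* (edgeR adjusted p = 0.107) and -0.91 for *Krt8* (edgeR adjusted p = 0.0139). Of the rest of the list, *Krt18* was at 0.63 (edgeR adjusted p = 0.177) and *Agr2*, not a keratin, at -0.32 (edgeR adjusted p = 0.515). *Tff1* had at most 1.03 normalized counts in any sample and was not tested. The summed corneal epithelial markers were 92813, 91131 and 84248 CPM against 86355, 96887 and 83010, and the groups overlapped. *Krt14*, a keratin of basal cells, was the 1 called marker among these 12, at 8184, 7760 and 9282 normalized counts in the controls and 93094, 48670 and 35434 in the Ptch1Prrx1 samples. In the same list the log2 fold change was 0.04 for *Krt5* (edgeR adjusted p = 0.816), -0.03 for *Trp63* (edgeR adjusted p = 0.838) and 0.99 for *Krt15* (edgeR adjusted p = 0.126). *Dsg1a* fell by less than a 2-fold change (-0.55, edgeR adjusted p = 0.0183). Of the 12 markers, 6 had a log2 fold change above 0. Among all genes called as higher, 82.2% were highest in Ptch1Prrx1 replicate 1. The part of these markers in the values of the YAP targets was not tested.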

How the data were processed

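Libraries were described by the labels as an Illumina TruSeq preparation and by the study as rRNA-depleted libraries sequenced as DNA nanoballs. Per the submitters' processing notes, the authors used Bowtie2 2.2.5 and RSEM 1.2.12 with the build mm9. The authors deposited RSEM's expected counts, not scaled for depth, and TPM values, scaled for length and depth. The 6 FPKM columns of single samples and the authors' group means were not used. Expected counts (39.4% of values above 0 were not whole) were rounded, because RSEM divides reads among similar genes. With edgeR 4.0.16 in R 4.3.3, 12999 genes passed filterByExpr and were tested (quasi-likelihood, TMM, 3 against 3 samples, Benjamini-Hochberg). The thresholds are those of the study's RNA-seq methods, which name no test for called genes. Normalized counts are CPM times the mean scaled library size, and standard errors derive from the F statistic. The procedure was tested on simulated data.

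The 10 targets and the gene lists were chosen with earlier results of these data known. Named genes were the targets, their regulators, up to 6 called genes of each other list, or the 3 with the smallest p where none was called. Some genes that meet this rule are not reported here. Ratios used a pseudocount of 0.5. Alternatives were DESeq2 1.42.0, limma 3.58.1 (voom, and log2 TPM plus 1 or 0.1 at a mean TPM of at least 1), other factors, filters and folds, a replicate block and single samples left out. Samples within groups differed by more than sampling noise.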

Additional observations from a re-analysis of the deposited data

How the results depend on the processing

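The number of called targets was 1 under DESeq2, limma-voom, limma on log2 TPM, the other size factors and filters, and no minimum fold change, and 0 to 1 when 1 sample was left out. The log2 fold change of *Ccn1* lay between 1.24 and 1.86 in all of these. Over all genes 420 were called, but 234 with limma on log2(TPM + 1), 1822 with no minimum fold change (54.3% higher, against 72.4%) and 59 to 430 with 1 sample left out, lowest without control replicate 2. The log2 fold change of *Ajuba* turned to -0.00388 with upper-quartile factors, -0.0194 and -0.0195 with limma on log2(TPM + 1) and log2(TPM + 0.1), -0.0198 without Ptch1Prrx1 replicate 3, -0.119 without control replicate 1 (range with 1 sample left out -0.119 to 0.107), and -0.0891 without replicate 1 of both groups, a setting chosen after seeing the data. With 1 sample left out, those of *Arhgef17* and *Ptpn14* ranged from -0.00133 to 0.121 and from -0.0109 to 0.212, below 0 without control replicate 1, and that of *Axl* from -0.121 to 0.0139, above 0 without Ptch1Prrx1 replicate 2. The cause was not tested. *Nuak2* kept its sign in every alternative, and its edgeR adjusted p was 0.0441 without Ptch1Prrx1 replicate 3.

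Across all tested genes same-numbered samples did not deviate together (coefficients of 0.105, -0.0137 and 0.0189). With 3 samples per group this does not settle whether the numbers pair the samples. A fit with the replicate number as a block called 390 genes, 352 of them shared with the 420, and 1 target, *Ccn1* (log2 fold change 1.46, edgeR adjusted p = 0.0189). The *Ccn1* to *Ccn2* and *Amotl1* to *Amotl2* ratios kept the sign of their difference in every alternative, with a range of 0.40 to 1.61 and of 0.19 to 0.34 when 1 sample was left out. *Ankrd1* was too low to be tested, and *Ccn2* had at most 60 counts.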
